A study of Mus musculus with 2 samples.

Results

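The region described here is the copy of the 45S ribosomal RNA gene, Rn45s, that the mm9 assembly of the mouse genome carries on chromosome 17. Its members are the cytosines listed in a 25 kb window around that copy, chr17:39970001-39995001, and they number 1455 of the 13025343 cytosines listed in all. The transcribed unit, taken as chr17:39979942-39985774, is 5833 bp long and held 1442 of them, and the rest of the window held 13. These bounds were taken as given, and whether they cover the whole 45S gene was not checked. The data map 5-hydroxymethylcytosine (5hmC), the base that TET enzymes make by oxidising 5-methylcytosine, in the mouse embryonic stem cell line E14, an established line, at passage 12 and with no treatment named. Genomic DNA (100 ng per library) was glucosylated at 5hmC and cut with AbaSI. This enzyme recognises the glucosylated base and cuts between that cytosine and another on the opposite strand. The 2 libraries, replicates of 1 group, were deposited as 1 read count per cytosine, so no value below has a replicate error and no test between samples was possible. The counts of all listed cytosines summed to 176006227 reads, with a median of 9 reads per listed cytosine. How reads were assigned to cytosines was not stated, so a read may be counted at more than 1 of them. Intervals are exact 95% intervals that cover counting error only and take every counted read as separate.

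Ribosomal RNA genes are transcribed by RNA polymerase I into the 45S precursor, which is processed into the RNAs of the small and large ribosomal subunits, with external and internal transcribed spacers removed. Mammalian cells carry these genes as long arrays of near-identical repeats on several chromosomes, and some repeats are silent and carry methylated CG dinucleotides. The arrays are missing from assemblies such as mm9, and single copies such as the one on chromosome 17 stand in for them. Reads of the arrays and reads of the chromosome 17 copy cannot be told apart in these data, and the handling of reads that match several places was not stated in these sources. In the RefSeq gene table of GRCm38.p6, an assembly other than that of the files, Rn45s itself is not named. That table has Rn18s-rs5, a pseudogene related to the 18S ribosomal RNA, on chromosome 17. Its neighbours there are the long noncoding RNA AY036118 and, further out, Esp15 and Esp38, genes of a family of exocrine gland secreted peptides.

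Each listed cytosine is deposited with the base that follows it, so the listed sites spell out part of the sequence of the unit. They gave 2092 of the 5833 bases (35.9%), and 0 bases were called differently by overlapping sites. The stretches around the sites with the most reads are shown because these sites came in pairs on opposite strands. Each is the plus strand of mm9, 5′ to 3′, and n stands for a base that no listed site spells out. The capitals mark the CG of the plus-strand cytosine on the left and the CG of the minus-strand cytosine on the right.
Pair 1, chr17:39980283-39980325: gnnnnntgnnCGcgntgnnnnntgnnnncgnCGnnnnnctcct
Pair 2, chr17:39980873-39980914: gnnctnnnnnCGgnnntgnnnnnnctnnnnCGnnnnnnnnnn
Pair 3, chr17:39985402-39985444: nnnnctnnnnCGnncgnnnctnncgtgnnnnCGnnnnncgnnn
Pair 4, chr17:39984856-39984898: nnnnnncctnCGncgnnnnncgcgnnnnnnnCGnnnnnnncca

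The longest stretches with every base spelled out show how closely listed cytosines can follow each other, and capitals mark each CG in them.
Run 1, chr17:39980321-39980331: ctcctggagCG
Run 2, chr17:39980131-39980140: CGCGCGcact
Run 3, chr17:39981657-39981666: ctcaggggag
Run 4, chr17:39984823-39984832: tgcaCGCGCG
Run 1 held 7 listed sites with 82 reads, of which 5 were in a CA, CT or CC context, jointly written as CH. Run 2 held 7 sites with 205 reads, of which 5 were CG. Run 3 held 7 sites with 64 reads, all CH. Run 4 held 8 sites with 143 reads, of which 6 were CG. Neighbouring listed CG dinucleotides of the unit were 2 bp apart, as in CGCG, in 55 cases, and the median distance between them was 8 bp.

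Listed cytosines filled the unit from end to end and stopped at its bounds. The first listed cytosine of the unit lay 4 bp inside the lower bound, at position 39979946, and the last lay 10 bp inside the upper bound, at position 39985764. Below the unit, the nearest listed cytosine was 289 bp away from the first one. Above it, the nearest was 4516 bp away from the last one. Within the unit the median distance from one listed cytosine to the next was 3 bp, and 93.5% of the distances were 10 bp or less. The widest gap was 55 bp. In the 200 kb flanks on each side of the window the median distance was 191 bp and the widest gap was 34486 bp, and over chromosome 17 outside the window the median was 31 bp.

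The unit held 247.2 listed cytosines per kb (234.6 to 260.3) and 3573 reads per kb (3525 to 3622). The left flank held 0.635 sites per kb (0.529 to 0.756) and 4.68 reads per kb, and the right flank 0.350 sites per kb (0.273 to 0.442) and 3.08 reads per kb. Over both flanks together the density of sites in the unit was 502-fold higher and the density of reads 922-fold higher. The part of the window outside the unit was like the flanks, with 13 sites, 87 reads and 4.54 reads per kb (3.64 to 5.60). It held 6 sites with 32 reads below the unit and 7 sites with 55 reads above it. The unit thus held 99.1% of the sites and 99.6% of the reads of the window.

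**Figure D1:**
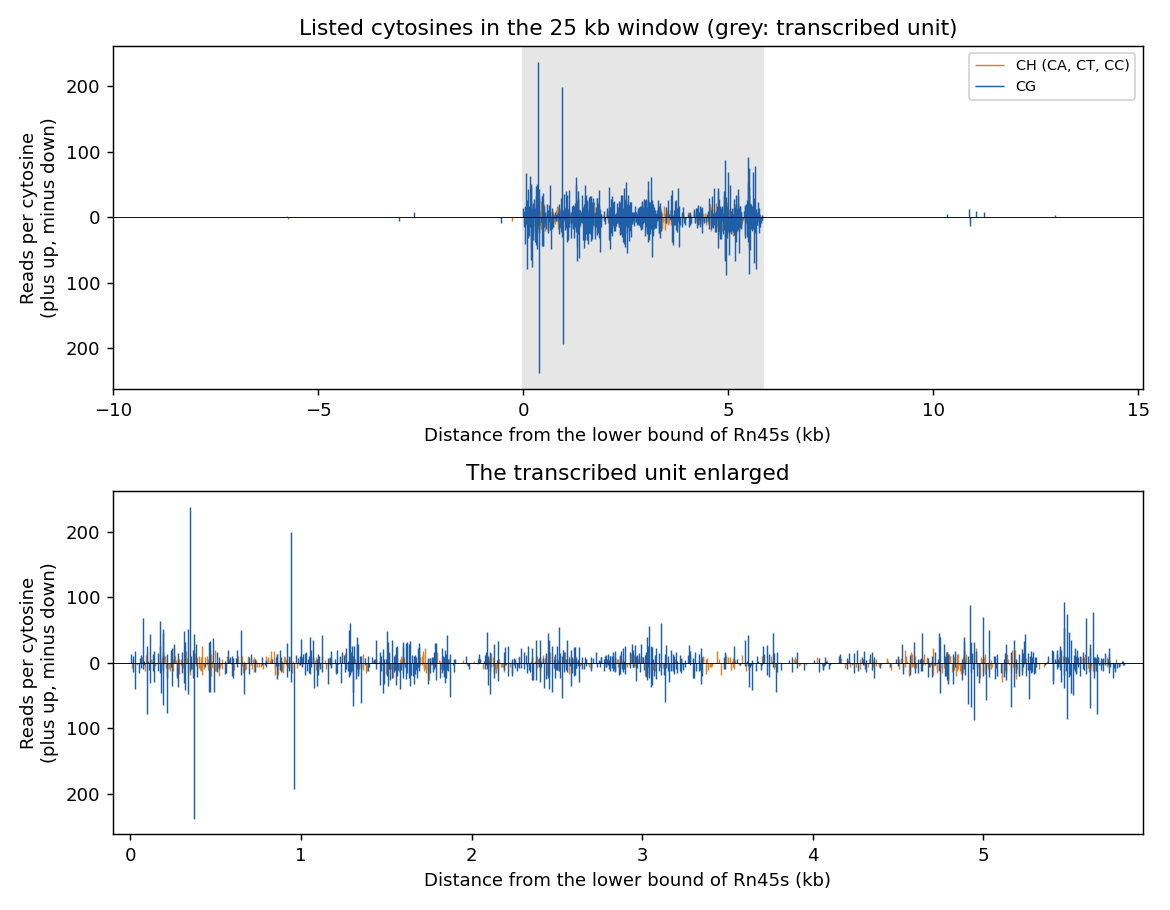
Reads per listed cytosine (y axis, plus strand upward and minus strand downward) against distance from the lower bound of Rn45s in kb, over the 25 kb window (top) and the unit alone (bottom), with CG in blue and CH in orange. The 1442 sites of the unit fill the grey area, and 13 sites lie outside it.

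The flanks were themselves poor in listed sites, so the unit was also set against the whole chromosome. Chromosome 17 outside the window had 5.94 sites and 79.5 reads per kb. Against that, the unit had 41.6-fold more sites and 44.98-fold more reads per kb. The flanks were cut into 68 windows as long as the unit, of which 26 had no listed site, and the richest had 21 sites. The richest flank window by reads had 258 reads, against 20844 reads in the unit.

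Over all contexts, the read density of the unit came mostly from the number of cytosines listed. Reads per listed cytosine were near the level of the chromosome. The median was 10 reads per site in the unit, with quartiles of 6 and 17, and 10 reads with quartiles of 6 and 16 over chromosome 17 outside the window. The means were 14.5 and 13.4 reads. Among 8429 windows of chromosome 17 that were as long as the unit and held 20 or more sites, 2413 had a higher mean. In the flanks the median was 6 reads and the mean 7.87. The equal medians of the unit and the chromosome did not hold at CG sites alone. These had a median of 14 reads in the unit and 10 over chromosome 17 outside the window, with means of 18.5 and 13.7. CH sites had medians of 7 and 6 and means of 8.04 and 7.98.

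By sites, the unit ranked above all 15817 other windows of its length on chromosome 17, of which the richest had 228 sites. By reads it ranked above them too. The 3 windows next below it by reads were chr17:30938233-30944065 with 5226 reads on 173 sites, chr17:3079825-3085657 with 4631 reads on 104 sites, and chr17:30885736-30891568 with 4545 reads on 199 sites. The counting interval of the unit, 20562 to 21129 reads, did not reach any of them. The intervals of the last 2 of these windows, 4499 to 4766 and 4414 to 4679 reads, overlapped. The middle one was of another kind, with CH cytosines at 73.1% of its sites and a mean of 44.5 reads per site.

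Over the 19 autosomes the windows of this length that held more reads than the unit numbered 16, and those that held more sites numbered 0. The window with the most sites outside the unit was chr2:98501872-98507704, with 680 sites and 3144834 reads, or a mean of 4625 reads per site. Next came chr11:3091491-3097323 with 558 sites and 40888 reads. Both were mostly CH, at 83.4% and 67.2% of their sites. By CG sites, the unit held 882 and the next window, chr15:76003991-76009823, held 402, with 8050 reads and 0 CH sites. The unit therefore had 2.12 times the sites and 2.19 times the CG sites of the richest other autosomal window. By CH sites it did not rank first, since its 560 CH sites were fewer than the 567 of the chromosome 2 window. These autosome-wide rankings were chosen after the values of the unit had been seen.

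**Figure D2:**
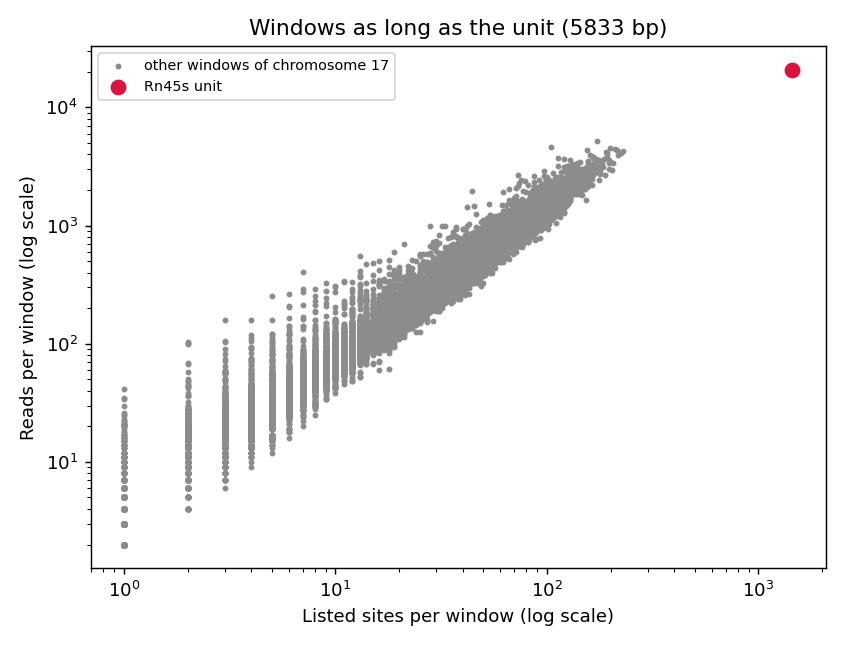
Reads against listed sites (both on log scales) for windows of chromosome 17 as long as the unit that hold a listed site, with the unit in red at 1442 sites and 20844 reads. The unit lies beyond the other windows on both axes, the richest of which has 228 sites.

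CG cytosines made up 882 of the 1442 sites of the unit (61.2%, 58.6 to 63.7) and carried 78.4% of its reads (77.8 to 78.9). Over chromosome 17 outside the window they made up 94.1% of sites and 96.5% of reads, and in both flanks 86.8% of sites (81.3 to 91.2). The remaining 560 sites of the unit were CH, at 38.8% (36.3 to 41.4) against 5.93% over the chromosome. The intervals of the unit and the chromosome do not overlap. Per kb, the unit had 27.1-fold more CG sites than the chromosome and 273-fold more CH sites. The number of CG and CH cytosines in the unit was not used here, so these are densities of listed sites and not rates per cytosine.

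Among the CH sites of the unit, 200 were CT, 194 CA and 166 CC. As shares of the CH sites these were 35.7% (31.7 to 39.8), 34.6% (30.7 to 38.7) and 29.6% (25.9 to 33.6), and the intervals overlap. Outside the window chromosome 17 had 17015 CA, 10917 CT and 4531 CC sites.

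CG cytosines of the unit carried more reads than CH cytosines, with medians of 14 and 7 and means of 18.5 and 8.04 reads. Over chromosome 17 outside the window the medians were 10 and 6 and the means 13.7 and 7.98, so that mean reads at CH sites were nearly equal in the unit and outside it. The ratio of the CG mean to the CH mean was 2.30 in the unit and 1.72 outside. At least 20 reads, the mark used here for a high site, were found at 296 sites of the unit (20.5%, 18.5 to 22.7), against 18.2% of all listed sites of the series. Split by context, 274 of the 882 CG sites were high (31.1%, 28.0 to 34.2), against 19.0% of all listed CG sites. Of the 560 CH sites, 22 were high (3.93%, 2.48 to 5.89), against 6.20% of all listed CH sites. All 40 sites of the unit with 50 or more reads were CG, and no share over all listed sites was computed for that mark. At the mark of 20 reads, 274 of the 296 high sites of the unit were CG, as were 100253 of the 102443 over chromosome 17 outside the window. That most high sites were CG at this mark was therefore not particular to the unit.

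Strands were close to balanced at CG and unbalanced at CH. The plus strand held 439 and the minus strand 443 of the CG sites, with 8080 and 8260 reads. CA was listed at 67 plus-strand and 127 minus-strand cytosines, a plus share of 34.5% (27.9 to 41.7). CT went the other way, with 125 plus and 75 minus sites and a plus share of 62.5% (55.4 to 69.2). Outside the window the plus shares were 52.9% for CA (52.2 to 53.7) and 51.8% for CT (50.9 to 52.8), outside the intervals of the unit.

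CC had 60 plus and 106 minus sites in the unit, a plus share of 36.1% (28.8 to 44.0). That was close to the 32.0% (30.7 to 33.4) of chromosome 17 outside the window, where CC was listed mostly on the minus strand as well. Median reads on the plus and minus strands were 8 and 8 at CA, 8 and 7 at CT and 5 and 6 at CC, so the strands differed in the number of CH sites more than in reads per site. Whether CA and CT themselves are unequally frequent on the strands of the unit was not tested. Over all contexts the plus strand held 47.9% of the sites (45.3 to 50.5) and 48.4% of the reads (47.7 to 49.1).

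A CG on one strand faces a CG on the other, and such a pair of cytosines is called a dyad. The unit had 527 dyads with a listed site, and 355 of them were listed on both strands (67.4%, 63.2 to 71.4). The share was 38.0% (37.9 to 38.2) over chromosome 17 outside the window and 14% (8.88 to 20.6) in the flanks. Of the 172 dyads listed on 1 strand, 84 were listed on the plus and 88 on the minus strand. Dyads with more reads are listed on both strands more often, so the comparison was repeated within ranges of the reads on the strand with more. At 2 to 5 reads the share was 16.7% in the unit (6.97 to 31.4, 42 dyads) and 7.84% outside, and the intervals overlap. At 6 to 10 reads it was 43.2% (33.0 to 53.7) against 26.1%, and at 11 to 20 reads 71.1% (64.1 to 77.5) against 48.2%. At 21 to 50 reads it was 84.6% (78.3 to 89.7) against 67.1%, and at 51 to 238 reads 91.2% (76.3 to 98.1) against 68.1%. In these 4 upper ranges the interval of the unit lay above that of the chromosome. The share of the unit fell to 45.5% without sites of the deposited classes 2CG and 2CH, described below. With a minimum of 10 reads per site it fell to 45.9%. No chromosome value was set beside these, so the comparison was not tested under those settings.

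**Figure D3:**
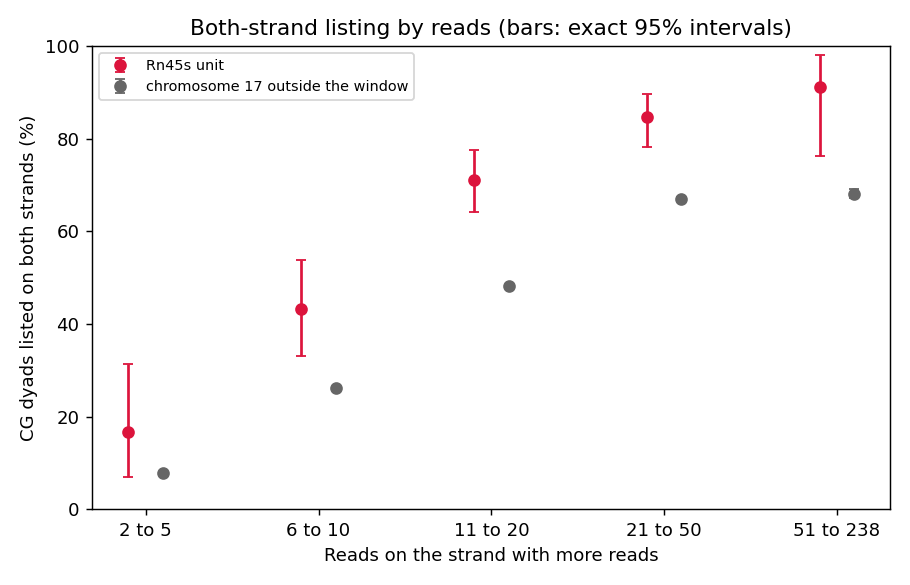
Share of CG dyads listed on both strands (y axis, percent, with exact 95% intervals) in 5 ranges of reads on the strand with more reads, for the unit in red and chromosome 17 outside the window in grey. The unit lies above the chromosome in each range, and the intervals overlap at 2 to 5 reads.

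The reads of the strands of a dyad were only loosely related. Over the 355 dyads of the unit listed on both strands the Spearman correlation of plus and minus reads was 0.28, and it was 0.23 over 141919 dyads of the chromosome, as descriptions across dyads that share the same libraries. The strands differed by more than 3-fold in 78 dyads of the unit (21.97%, 17.8 to 26.6), near the 22.3% found outside. The plus strand had more reads in 168 dyads, the minus strand in 175, and 12 were equal.

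The sites of the unit with the most reads were paired with a site about 22 bp away on the other strand. The enzyme cuts between a cytosine and another on the opposite strand, so the method itself can give such pairs. Pairs at these distances were also found outside the unit, as given below, and their origin was not tested. The site of the unit with the most reads was the plus-strand CG cytosine at position 39980293 with 238 reads, and the minus-strand CG cytosine at 39980315, 22 bp to its right, also had 238 reads (pair 1 above). The other strand of each of these CGs, 1 bp away, had 13 and 44 reads. In pair 2 the cytosine at 39980883 had 199 reads and its partner at 39980904, at 21 bp, had 193. In pair 3 the cytosine at 39985412 had 92 and its partner at 39985434 had 86 reads, and in pair 4 those at 39984866 and 39984888 had 88 each. The next were the minus-strand site at 39980038 with 78 reads, whose partner at 21 bp had 68, and the plus-strand site at 39985587 with 78 reads, whose partner at 22 bp had 78. All 10 sites with the most reads had such a partner within 1.5 times their own count. These 10 include both sites of each of pairs 1 to 4, so they are not 10 separate cases. The partner taken was the opposite-strand site with the most reads at 21 to 25 bp, and no such share was computed for other regions. Together the 10 sites held 6.61% of the reads of the unit.

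Over all plus-strand sites with at least 20 reads, 85 of 142 had a minus-strand site of at least 20 reads 21 to 25 bp to the right (59.9%, 51.3 to 68.0). Outside the window the share was 23.1%. The unit is dense, so some partners lie there by position alone, and offsets of 31 to 35 bp were taken for comparison. Per offset, 12.5% of these plus-strand sites had a partner at 21 to 25 bp and 2.82% at 31 to 35 bp, and outside the window the values were 4.64% and 0.310%. With no minimum on reads the unit had 15.2% and 14.5%, so the presence of a partner did not set these distances apart. Equal counts did. Over all sites of the unit, 72 of the 98 partners at 23 bp had exactly the count of their plus-strand site (73.5%), as had 29 of the 104 at 22 bp (27.9%). From 26 to 40 bp that share lay between 0.917% and 7.69%. Outside the window the counts were equal for 10134 of 10523 partners at 23 bp (96.3%) and 9538 of 11027 at 22 bp (86.5%). Equal counts at these distances were thus not particular to the unit and were less frequent there. The 72 equal pairs at 23 bp were 33 with both sites in the deposited class 2CG and 39 with both in the class 2CH. The sources do not explain these classes, so equal counts and class cannot be taken as separate findings.

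**Figure D4:**
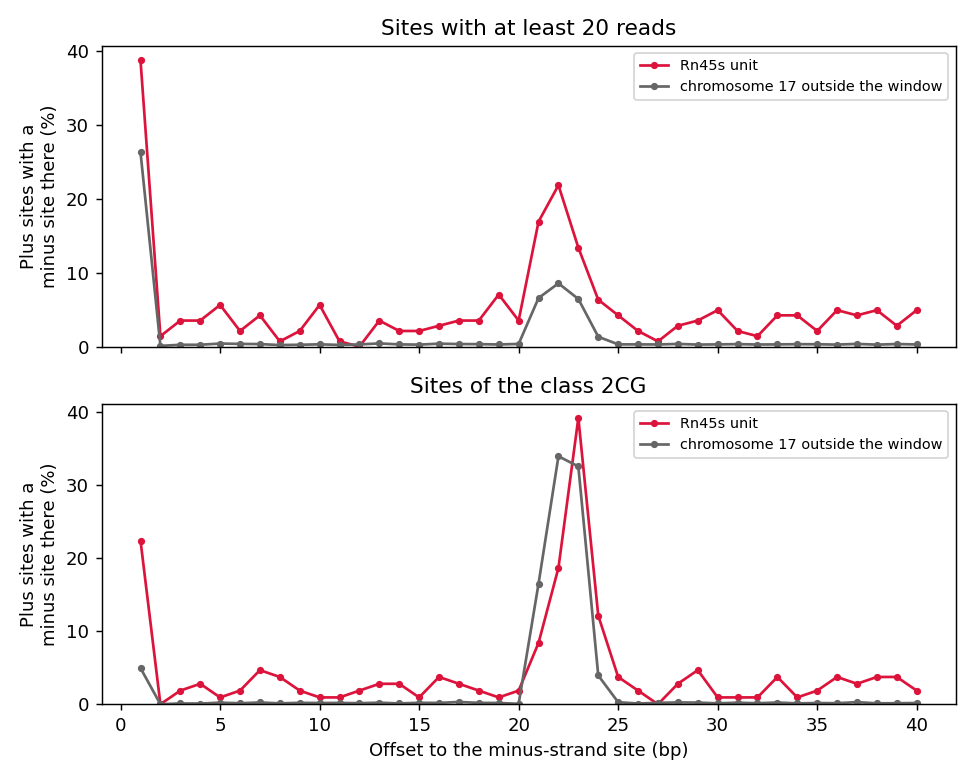
Share of plus-strand sites (y axis, percent) with a minus-strand site at each offset of 1 to 40 bp to the right, for sites with at least 20 reads (top) and sites of the class 2CG (bottom), in the unit (red) and over chromosome 17 outside the window (grey). Besides the dyad partner at 1 bp, a maximum lies at 22 or 23 bp in the unit and at 22 bp outside the window.

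The deposited class codes, which the sources do not explain, were spread differently in the unit. CGCH held 387 sites (26.8%), 1CH 288 (19.97%), 1CG 278 (19.3%), 2CH 272 (18.9%) and 2CG 217 (15.0%). Outside the window CGCH held 51.6% and 1CG 34.4% of the sites, and the classes 1CH, 2CH and 2CG held 2.22%, 3.71% and 8.09%. Median reads in the unit were 15 for 2CG, 14 for CGCH, 11 for 1CG and 7 for both CH classes. Over the chromosome they were 17, 10, 9, 6 and 6 for 2CG, CGCH, 1CG, 1CH and 2CH, so that the class 2CG, which stood above the other CG classes there, was close to CGCH in the unit. Of the plus-strand 2CG sites of the unit, 76.6% (67.5 to 84.3) had a minus-strand 2CG site 21 to 25 bp to the right, against 86.8% outside. The 2 counts were exactly equal in 44 of 88 such pairs (50%, 39.1 to 60.9), against 88.3% outside. For 2CH they were equal in 49.3% (40.95 to 57.7) and 85.3%. Every combination at 21 to 25 bp counted as a pair, so a site could be in more than 1. The 88 2CG pairs came from 82 plus-strand sites and the 146 2CH pairs from 123. Outside the window 19417 2CG pairs came from 19296 such sites and 9067 2CH pairs from 8856. The intervals take pairs as separate, and the effect of shared sites on the equal shares was not tested.

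Along the unit, sites and reads varied less than 7-fold between bins of 500 bp. The 11 full bins held between 65 and 161 sites, with a median of 127, and between 506 and 3119 reads, with a median of 1748. The first bin, up to 500 bp from the lower bound, was the highest in both, and its CG sites had a median of 23 reads. The bins from 3501 to 4000 bp and from 4001 to 4500 bp were the lowest, with 69 and 65 sites and 785 and 506 reads. The bin from 4501 to 5000 bp next to them held 144 sites and 2248 reads. The CG sites of the low bins had medians of 11 and 9 reads, and over the full bins these medians ranged from 9 to 23.

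**Figure D5:**
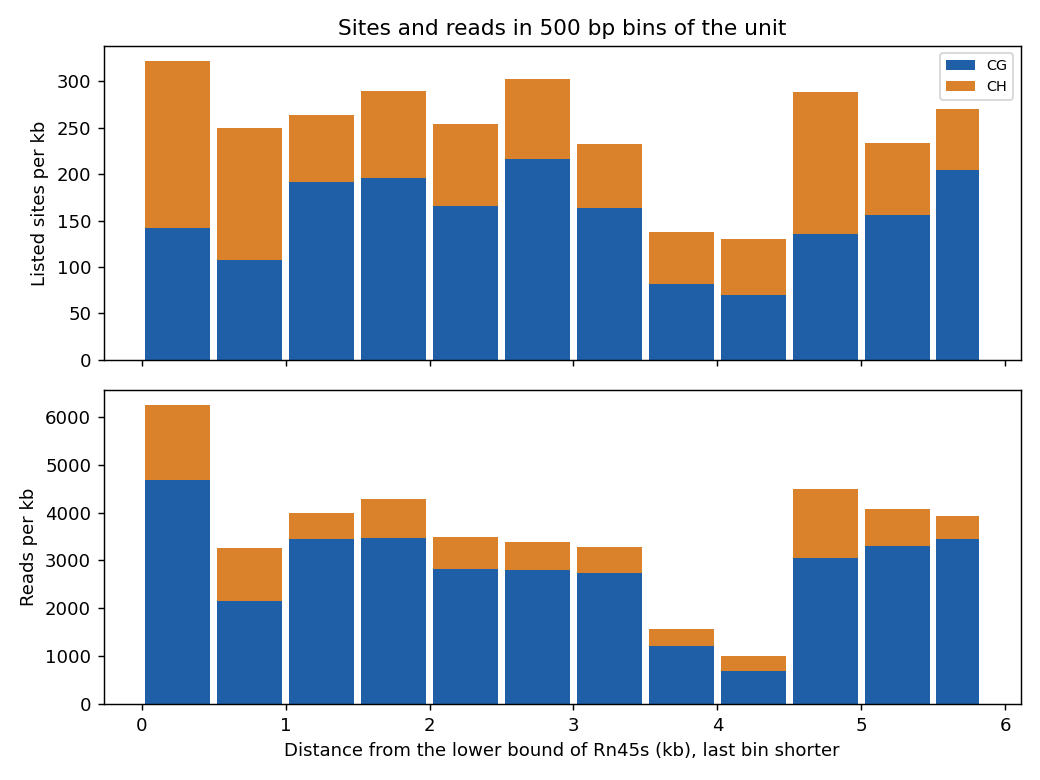
Listed sites per kb (top) and reads per kb (bottom) in bins of 500 bp along the unit, by distance from the lower bound in kb, with CG in blue and CH in orange. The bins between 3501 and 4500 bp are the lowest in both panels, and the first bin is the highest.

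Both-strand listing was lowest in the same bins. In the bins from 3501 and 4001 bp, 10 of 31 dyads (32.3%, 16.7 to 51.4) and 7 of 28 dyads (25%, 10.7 to 44.9) were listed on both strands. The other 9 full bins lay between 54.3% and 88.9%, the highest being the bin from 4501 bp with 32 of 36 dyads. The interval of the lowest of these 9, 36.6% to 71.2% in the bin from 501 bp, overlapped those of both low bins. The share of CH sites ranged from 27.3% to 56.8% over the full bins. It was highest in the bins from 501 bp (56.8%), from 1 bp (55.9%) and from 4501 bp (52.8%), whose intervals overlap, and lowest in the bin from 1001 bp. The plus strand held between 45.1% and 54.4% of the reads of each full bin. No annotation of the spacers and the 18S sequence on mm9 was used here, so the bins are not assigned to parts of the precursor.

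Mitochondrial DNA, which is also present in many copies per cell, had nearly the same reads per kb as the unit, at 3637 (3608 to 3667). It had 202.6 listed sites per kb, against 247.2 in the unit. The makeup of these sites was different. CH cytosines made up 88.4% of the mitochondrial sites and 38.8% of those of the unit. Mean reads per CG site were 1.23 times those per CH site in mitochondrial DNA and 2.30 times in the unit. Dyads were listed on both strands in 87.3% of cases (82.0 to 91.5) in mitochondrial DNA. The plus strand held 65.1% of the mitochondrial sites and 47.9% of those of the unit.

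In the flanks 15 of 197 sites were high by the mark of 20 reads (7.61%, 4.32 to 12.2), against 18.2% of all listed sites of the series. In the left flank the highest were the minus-strand CG at 39906047 with 49 reads, the plus-strand CG at 39846420 with 46 and the plus-strand CG at 39906054 with 29. In the right flank they were the pair of 2CG sites at 40111946 and 40111969 with 36 reads each, 23 bp apart, and the 2CG site at 40129736 with 23. Within the window outside the unit the highest were the 2CG pair at 39990802 and 39990824 with 13 reads each, then 39990979 with 10, and 39977287 and 39979407 with 8 each. All of these were CG, and 0 of the 13 sites of the window outside the unit were high by that mark. The interval of that share, 0 to 24.7%, includes the 18.2% of all listed sites.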

How the data were processed

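AbaSI-cut DNA of E14 cells was sequenced in 2 libraries. Build mm9, Bowtie and CASAVA 1.8.2 are named in the submitters' processing notes. The aligner's version, the treatment of reads matching several places and of PCR copies, the listing minimum and the assignment of reads to cytosines were not stated in these sources. The authors deposited whole-number read counts, unscaled, in 1 column for both libraries, with a lowest listed count of 2. An unlisted cytosine has no measured value.

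The window was selected on the deposited start coordinate (column 2), and positions are printed 1-based (column 3). Rn45s bounds were taken as given for mm9. Flanks are 200 kb on each side of the window. Intervals are exact Clopper-Pearson for shares and exact Poisson for counts, at 95%. Densities for chromosome 17 and mitochondrial DNA use the span from first to last listed site. Comparison windows as long as the unit were counted from position 1, leaving out those that overlap it. PCR reads are not independent molecules. Sites named are the 10 with the most reads in the unit, 5 in the window outside it and 3 per flank. Functions were tested on simulated data. Members and rules were chosen with earlier results of these data known. No mm9 sequence or annotation was used. Python 3.11.15, numpy 2.4.6, pandas 2.3.3, scipy 1.17.1 and matplotlib 3.10.9 were used. Alternatives were other read minimums, bounds, flanks, weights and window starts.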

Additional observations from a re-analysis of the deposited data

How the results depend on the processing

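Of 58 alternatives for 11 results, 36 gave values inside the interval used for comparison and 22 moved. That interval was the counting interval for shares and densities. For the ratios to the flanks it was any value above the ratio to the richest flank window. With minimums of 5 and 10 reads per site, the unit had 210.2 and 131.0 sites and 3454 and 2908 reads per kb, 66.2% and 78.3% of its sites were CG with 80.0% and 86.1% of the reads, and 62.7% and 45.9% of dyads were on both strands. With 10 reads, the window outside the unit had 1.88 reads per kb. Without 2CG and 2CH sites, the unit had 163.4 sites per kb, CG made up 69.8% of sites and 45.5% of dyads were on both strands. Those classes were also weighted 0.5, in case their reads are counted at both cytosines of a pair. There were then 2972 reads per kb and 80.2% of reads at CG. Trimming 500 bp from each end gave 3247 reads per kb and 77.6% at CG. Adding 500 bp gave 211.2 sites and 3051 reads per kb. Against all of chromosome 17 in place of the flanks, the ratios were 41.6 for sites and 44.98 for reads. With the flanks kept, minimums of 5 and 10 reads gave 712.5 and 1027 for sites and 1057 and 1343 for reads. Flanks of 100 kb gave 348.2 and 686.5. Higher minimums and dropped classes leave fewer sites by construction, and other causes were not tested. The plus-strand shares stayed within their intervals under every alternative listed for them. Other window starts, an alternative chosen after seeing the data, gave 2.20 times the sites of the richest autosomal window. No paired analysis was possible because the table has 1 column for both libraries, and no fit without a replicate could be made.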
